A study of Mus musculus with 82 samples.

Results

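The genes described here encode 10 proteins of glucose uptake and glycolysis in the mouse: the glucose transporter Slc2a1 (GLUT1), the hexokinases Hk1 and Hk2, the phosphofructokinase subunits Pfkl, Pfkm and Pfkp, the bifunctional enzyme Pfkfb3, the pyruvate kinase Pkm, the enolase Eno2 and the lactate dehydrogenase Ldha. All array probe sets annotated to 1 of these symbols alone were taken, which gave 18 probe sets for the 10 genes, of 45037 probe sets tested and 18193 genes with such a probe set. A probe set is the group of short oligonucleotides that reads out a transcript on the array, and its value is a log2 intensity. No filter on dim probe sets was applied, so all 18 were tested. 1 further probe set names Hk1 together with other genes and was left out.

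RNA was profiled on Affymetrix mouse arrays from mouse embryonic fibroblasts (MEFs), a cultured cell, and from primary hepatocytes, liver cells freshly isolated by collagenase perfusion, all labelled C57BL/6. Each cell type was either control (WT) or labelled AMPK alpha1-/- alpha2-/- (dKO), a deletion of the α1 and α2 genes of AMP-activated protein kinase (AMPK), which carry its kinase activity. Cells received DMSO vehicle, 991 or AICAR for 4 h, with 991 at 10 µM and AICAR at 2 mM in MEFs, and 991 at 3 µM and AICAR at 300 µM in hepatocytes. The vehicle samples carry "No" or "No Treat" in their titles, while the treatment label and the protocol call them vehicle. These make 12 groups, from which the submitters had dropped 1 array of WT MEFs with 991 and 1 of dKO hepatocytes with vehicle as outliers, with 3 arrays of WT MEFs with 991, 4 arrays in each other MEF group, 9 arrays of dKO hepatocytes with vehicle and 10 in each other hepatocyte group. The MEF arrays are technical replicates, so their p-values measure technical spread, and no separate MEF lines are named, so genotype and line cannot be told apart. Hepatocytes came as 2 biological replicates per genotype, whose technical replicates were averaged, so n = 2 in every hepatocyte group, and the plated hepatocytes had been kept overnight with dexamethasone in the medium of every group. The question of the series is how far the transcriptional response to 2 AMPK activators needs AMPK itself. The doses differ between the compounds and between the cell types, so values for 991 and AICAR are given side by side and not compared, and the comparisons with each compound share their vehicle samples.

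GLUT1 lets glucose into the cell, hexokinase traps it as glucose 6-phosphate, and phosphofructokinase commits it to glycolysis. PFKFB3 makes fructose 2,6-bisphosphate, the activator of phosphofructokinase, enolase and pyruvate kinase complete the path to pyruvate, and lactate dehydrogenase turns pyruvate into lactate. AMPK is an energy sensor switched on when ATP falls. The compound 991 binds AMPK directly, while AICAR enters cells and becomes the AMP mimic ZMP, which can also act on other AMP-binding enzymes. Hepatocytes rely on GLUT2 (Slc2a2), glucokinase and the liver pyruvate kinase Pklr, and make glucose as well as use it.

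The 82 arrays were alike within each group (correlation with the rest of the group 0.998 to 0.999) and no pair was identical. Prkaa1, which encodes AMPKα1, has 1 probe set, which read 8.17 to 8.45 in WT and 8.17 to 8.35 in dKO MEFs with vehicle, and 5.40 to 5.93 in WT and 4.33 to 4.81 in dKO hepatocytes with vehicle. Prkaa2, the gene of AMPKα2, differed between dKO and WT MEFs by -0.32 ± 0.08 (SE; limma, adjusted p = 0.00134) on its brightest probe set, which read 9.59 to 9.85 in WT and 9.52 to 9.75 in dKO hepatocytes. The deleted stretch of each gene is not named in the labels, and a probe set outside that part checks nothing, so genotype below is that of the labels. Of 12 listed hepatocyte markers 10 were measured, with a mean level of 11.88 to 11.99 in the hepatocyte groups and 5.41 to 5.56 in the MEF groups, although Ass1 read only 5.07 in WT hepatocytes. The hepatocyte groups also held the 10 Kupffer cell and macrophage markers at a mean of 8.03 to 8.67 and the 8 liver endothelial markers at 6.71 to 7.04. Their 5 measured cholangiocyte markers averaged 5.51 to 5.67, their 7 lymphocyte and erythroid markers 5.88 to 6.05 and their 12 fibroblast and stellate markers 6.21 to 6.33. In such bulk samples fewer cells of a type and less RNA per cell cannot be told apart.

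In WT MEFs, 991 raised Eno2, and to a lesser degree Hk2 and the probe sets 1420901_a_at of Hk1 and 1416069_at of Pfkp. Of these calls only that of Eno2 held after quantile normalization and in every fit without 1 array. In dKO MEFs 991 lowered Hk2, and the Eno2 change with 991 was -0.02 ± 0.08 and not called. AICAR lowered Eno2, Hk2 and the Pfkfb3 probe set 1416432_at in both genotypes. A probe set is called at an adjusted p under 0.05 (limma's moderated test, Benjamini-Hochberg over all 45037 probe sets), and changes are log2 differences ± SE. With 991, 4 of 18 member probe sets were called in WT MEFs, all higher, where 13% of all probe sets were called, and 1, lower, was called in dKO MEFs, where 1.78% were. With AICAR, 5 were called in WT MEFs (1 higher, 4 lower; 31.7% of all) and 7 in dKO MEFs (1 higher, 6 lower; 37.8% of all). The difference between the effects in WT and dKO was called for 2 member probe sets with 991 (2.9% of all) and for 3 with AICAR (9.37% of all). The members' median change was 0.04 with 991 in WT MEFs and -0.04 with AICAR in dKO MEFs, against -0.0048 and -0.0091 over all probe sets. It was -0.0085 with 991 in dKO MEFs and 0.0083 with AICAR in WT MEFs, against 0.0056 and -0.006.

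**Figure D1:**
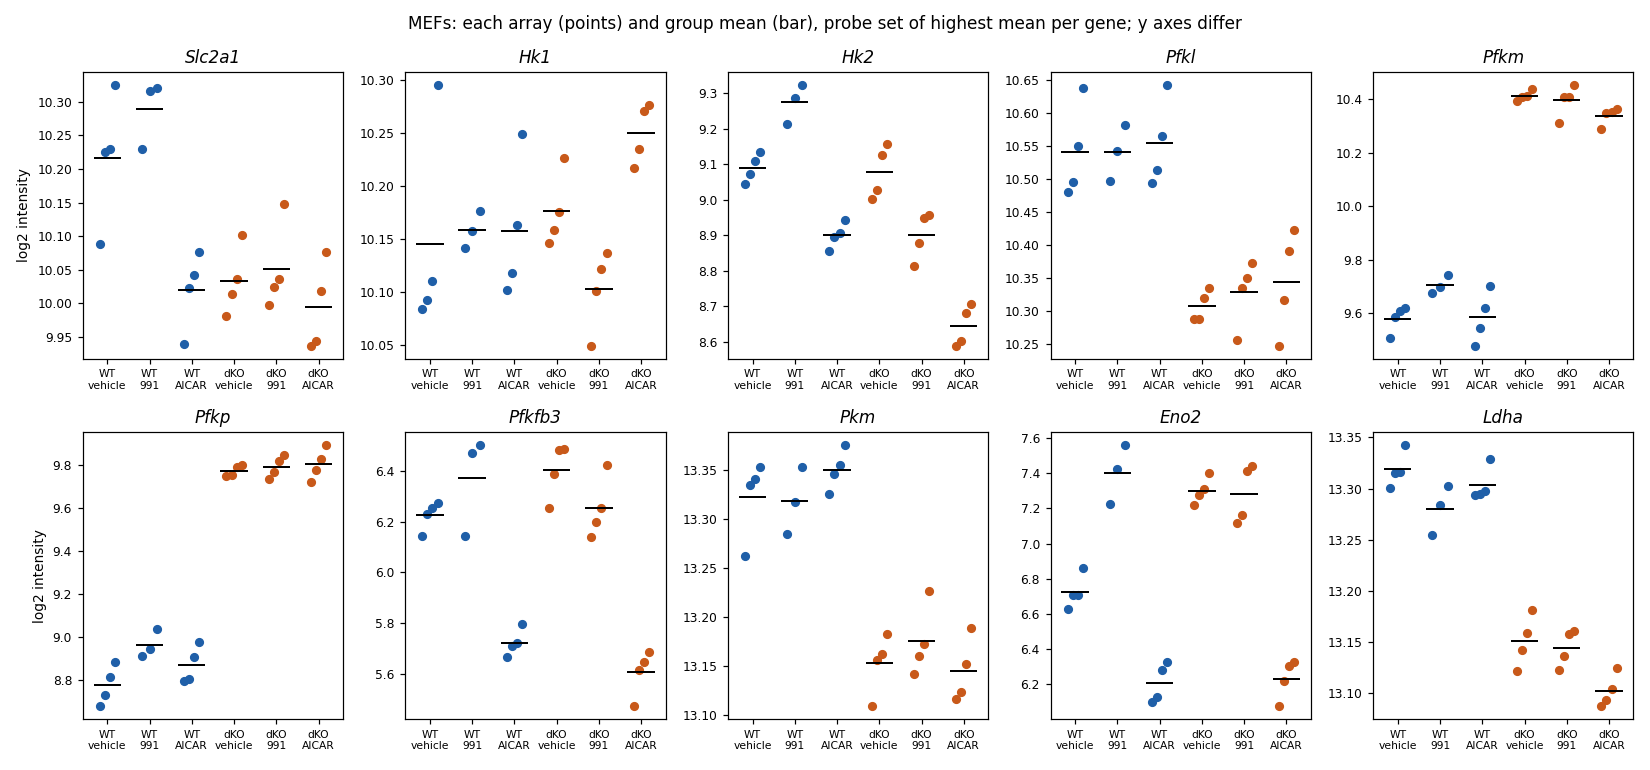
Log2 intensity of each gene's probe set of highest mean in MEFs, by genotype and treatment, with 1 point per array, a bar at the group mean and a separate scale for each gene. Eno2 arrays of WT cells with 991 lie between 7.22 and 7.56, above all WT vehicle arrays, and all arrays with AICAR lie below vehicle for Eno2, Hk2 and Pfkfb3.

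Hk2, the hexokinase that many cells induce when glycolysis is stimulated, is read by 1 probe set (1422612_at). Its WT MEF arrays with vehicle read 9.04, 9.13, 9.07 and 9.11, those with 991 read 9.29, 9.32 and 9.21, and those with AICAR read 8.90, 8.91, 8.94 and 8.86. In dKO MEFs the vehicle arrays read 9.12, 9.16, 9.03 and 9.0, the 991 arrays 8.95, 8.96, 8.81 and 8.88, and the AICAR arrays 8.60, 8.71, 8.59 and 8.68. Arrays with 991 lay above vehicle in WT and below it in dKO, arrays with AICAR lay below it in both, and none of these pairs of groups overlapped. The change with 991 was 0.18 ± 0.05 in WT (adjusted p = 0.011) and -0.18 ± 0.04 in dKO (adjusted p = 0.0316). The difference between them was 0.36 ± 0.07 (adjusted p = 0.00141). With AICAR Hk2 fell by 0.19 ± 0.04 in WT (adjusted p = 0.00113) and by 0.43 ± 0.04 in dKO (adjusted p = 1.77e-09), a difference of 0.24 ± 0.06 (adjusted p = 0.0105). The rise with 991 in WT was not called after quantile normalization (0.10, adjusted p = 0.239), without WT 991 replicate 2 (adjusted p = 0.0529) or without WT 991 replicate 3 (adjusted p = 0.0744). The fall with 991 in dKO was not called without dKO vehicle replicate 1 or 2 or without dKO 991 replicate 3 or 4 (-0.15 to -0.17, adjusted p = 0.0721 to 0.151), nor without the intensity trend (adjusted p = 0.0725). The differences between genotypes and the falls with AICAR passed under every alternative run.

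Eno2, the enolase best known from neurons, is read by 1 probe set (1418829_a_at) and had the largest changes among the members in MEFs. With vehicle its WT arrays read 6.71, 6.86, 6.71 and 6.63 and its dKO arrays 7.28, 7.31, 7.40 and 7.22. With 991 the WT arrays read 7.56, 7.42 and 7.22 and the dKO arrays 7.12, 7.16, 7.41 and 7.44. WT cells with 991 thus reached the range that dKO cells already had with vehicle, and dKO cells with 991 overlapped their own vehicle arrays. With AICAR the WT arrays read 6.12, 6.33, 6.28 and 6.10 and the dKO arrays 6.08, 6.33, 6.30 and 6.22, so both genotypes stood at the same low level. The change with 991 was 0.68 ± 0.09 in WT (1.60-fold, adjusted p = 7.23e-06), and the difference from that in dKO was 0.69 ± 0.12 (adjusted p = 0.00118). AICAR lowered Eno2 by -0.52 ± 0.08 in WT (adjusted p = 8.63e-06) and by -1.07 ± 0.08 in dKO (to 0.476 of vehicle, adjusted p = 4.58e-12). The AICAR effects differed by 0.55 ± 0.12 (adjusted p = 0.00194), beside a vehicle level that was higher in dKO by 0.57 ± 0.08. These calls held under every alternative run.

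Pfkfb3, the inducible kinase that raises fructose 2,6-bisphosphate, has 2 probe sets that behaved differently. On 1416432_at the WT arrays read 6.26, 6.27, 6.14 and 6.23 with vehicle and 5.71, 5.80, 5.72 and 5.67 with AICAR, and the dKO arrays read 6.48, 6.39, 6.25 and 6.49 with vehicle and 5.65, 5.69, 5.62 and 5.47 with AICAR. All AICAR arrays lay below all vehicle arrays. Pfkfb3 fell by 0.50 ± 0.08 in WT (adjusted p = 9.58e-06) and by 0.80 ± 0.08 in dKO (adjusted p = 1.55e-09), and the difference between the genotypes was not called (0.29 ± 0.11, adjusted p = 0.117). The dimmer probe set 1456676_a_at read 4.41 to 5.04 over all MEF arrays, and its AICAR changes of 0.19 ± 0.09 in WT and 0.03 ± 0.09 in dKO were not called. With 991 the change on 1416432_at was 0.15 ± 0.09 in WT and -0.15 ± 0.08 in dKO, neither called.

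The start regions of Hk2, Eno2 and Pfkfb3, the members with the largest AICAR falls in MEFs, and of Ldha, whose level hardly moved, are shown so that their letters can be compared. Each run is the 250 bases before a transcript start in RefSeq (build GRCm38.p6), read 5′ to 3′ on the strand of the gene. Capitals mark each ACGTG on either strand, the core of the sites bound by HIF factors, which also lies inside CACGTG, the E-box bound by MYC and by the glucose-sensing factor ChREBP. The regions are chr6:82774455-82774704 (minus strand) for Hk2, chr6:124769674-124769923 (minus strand) for Eno2, chr2:11553930-11554179 (minus strand) for the first of 2 Pfkfb3 starts and chr7:46845554-46845803 (plus strand) for the first of 2 Ldha starts.
Hk2: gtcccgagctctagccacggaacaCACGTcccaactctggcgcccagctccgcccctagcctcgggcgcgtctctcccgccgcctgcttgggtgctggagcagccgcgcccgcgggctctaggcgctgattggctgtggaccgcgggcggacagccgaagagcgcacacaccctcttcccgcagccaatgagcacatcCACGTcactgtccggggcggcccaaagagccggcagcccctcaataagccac
Eno2: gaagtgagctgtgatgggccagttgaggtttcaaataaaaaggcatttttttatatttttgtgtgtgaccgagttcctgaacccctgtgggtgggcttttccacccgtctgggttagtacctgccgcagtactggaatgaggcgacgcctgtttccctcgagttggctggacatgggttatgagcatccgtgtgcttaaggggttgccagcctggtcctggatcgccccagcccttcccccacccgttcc
Pfkfb3: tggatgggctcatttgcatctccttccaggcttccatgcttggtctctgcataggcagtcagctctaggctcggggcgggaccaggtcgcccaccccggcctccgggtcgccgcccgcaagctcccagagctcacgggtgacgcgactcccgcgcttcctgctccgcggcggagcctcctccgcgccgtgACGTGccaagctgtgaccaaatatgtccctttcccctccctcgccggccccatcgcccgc
Ldha: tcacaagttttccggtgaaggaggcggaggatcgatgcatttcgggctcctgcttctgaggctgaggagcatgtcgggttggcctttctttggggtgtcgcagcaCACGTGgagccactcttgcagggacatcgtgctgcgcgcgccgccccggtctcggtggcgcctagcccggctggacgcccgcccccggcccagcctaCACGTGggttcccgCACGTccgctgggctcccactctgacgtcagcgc
Counted back from the start, Hk2 had matches at -226 and -52, Pfkfb3 at -60 and Ldha at -145, -48 and -34, of which the first and second of Ldha are CACGTG. The second Pfkfb3 window, not printed, held CACGTG at -53, and the second Ldha window held no match. The Eno2 window had no match, which says only that these letters are not in it. All 10 genes matched a RefSeq window, 17 windows in all, of which 8 held ACGTG (16.6% of all 32851 windows of that length) and 3 held CACGTG (6% of all windows). Slc2a1, Pfkm and Pkm were the other members with ACGTG in a window. These matches are a description of letters and not of binding.

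Hk1, the hexokinase of most tissues, has 2 probe sets that disagreed in size. On 1420901_a_at the WT MEF arrays read 8.02, 8.37, 8.24 and 7.99 with vehicle, 8.38, 8.34 and 8.38 with 991 and 8.30, 8.56, 8.44 and 8.43 with AICAR. The dKO arrays read 8.25, 8.25, 8.19 and 8.24 with vehicle, 8.24, 8.27, 8.32 and 8.36 with 991 and 8.67, 8.59, 8.58 and 8.47 with AICAR, and only AICAR in dKO was clear of its vehicle arrays. AICAR raised this probe set by 0.28 ± 0.06 in WT (adjusted p = 0.000968) and 0.34 ± 0.06 in dKO (adjusted p = 6.13e-05), and 991 by 0.21 ± 0.07 in WT (adjusted p = 0.0411). The brighter probe set 1437974_a_at stayed between 10.05 and 10.30 on all MEF arrays and was not called with either compound. The 991 call was lost without WT vehicle replicate 1 or 4 (adjusted p = 0.155 and 0.148), without WT 991 replicate 2, 3 or 4 (adjusted p = 0.127, 0.0889 and 0.0739) and after quantile normalization (0.12, adjusted p = 0.208). With the interquartile range of the array as a covariate the change was 0.10 (adjusted p = 0.596), and the call was also lost without the intensity trend (adjusted p = 0.067) and with the technical replicate number as a block (adjusted p = 0.0585).

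Slc2a1, the transporter that supplies basal glucose in most cells, has 3 probe sets. On the brightest, 1434773_a_at, the WT MEF arrays read 10.23, 10.23, 10.09 and 10.33 with vehicle, 10.32, 10.32 and 10.23 with 991 and 10.02, 10.04, 10.08 and 9.94 with AICAR. The dKO arrays of this probe set read 10.04, 10.01, 9.98 and 10.10 with vehicle, 10.00, 10.04, 10.15 and 10.02 with 991 and 10.08, 10.02, 9.94 and 9.94 with AICAR, and these groups overlapped. The WT arrays with AICAR lay below all WT vehicle arrays, by -0.20 ± 0.04 (adjusted p = 0.000854; not called for the mean of the 3 probe sets, adjusted p = 0.0585), while in dKO the change was -0.04 ± 0.04, and the difference between these effects was not called (-0.16 ± 0.06, adjusted p = 0.132). On 1426600_at the fall was in dKO (-0.24 ± 0.05, adjusted p = 0.000134) and not in WT (-0.02 ± 0.05), with a difference of 0.23 ± 0.07 (adjusted p = 0.032). The probe sets thus placed the AICAR fall in opposite genotypes, and the third, 1426599_a_at, changed by -0.06 in each without a call. The difference on 1426600_at was not called in 9 of the 23 fits that left out 1 array: dKO AICAR replicates 1 and 3, dKO vehicle replicates 1, 2 and 3, WT vehicle replicates 1 and 4, and WT AICAR replicates 2 and 3 (adjusted p = 0.0524 to 0.0923), nor without the intensity trend (adjusted p = 0.0659). With 991 the Slc2a1 probe sets changed by 0.00 to 0.12 in WT MEFs and by -0.13 to 0.02 in dKO MEFs, none of them called by limma, although 1 in each genotype had an unadjusted p under 0.05.

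The phosphofructokinase subunits of MEFs moved little with treatment. Pfkp, the platelet-type subunit, rose with 991 in WT on 1416069_at, from 8.68, 8.88, 8.81 and 8.73 with vehicle to 8.94, 9.04 and 8.91, a change of 0.19 ± 0.05 (adjusted p = 0.0155) with no overlap. This call was lost without WT vehicle replicate 1 (adjusted p = 0.072), without WT 991 replicate 3 (adjusted p = 0.11) and after quantile normalization (0.09, adjusted p = 0.146). It was also lost with the interquartile range of the array as a covariate (0.08, adjusted p = 0.473) and for the mean of the 3 probe sets (0.08, adjusted p = 0.354), and the probe set 1430634_a_at changed by 0.13 ± 0.07 (adjusted p = 0.191). Pfkm, the muscle-type subunit, read 9.51, 9.61, 9.62 and 9.59 with vehicle and 9.70, 9.68 and 9.74 with 991 in WT, and just missed the threshold (0.13 ± 0.04, adjusted p = 0.0508). The dim Pfkp probe set 1437759_at, at 4.99 to 5.61 on all MEF arrays, fell with AICAR in dKO (-0.24 ± 0.09, adjusted p = 0.0372), a call lost without dKO AICAR replicate 1, 3 or 4 or dKO vehicle replicate 1 or 3 (adjusted p = 0.0687 to 0.179) or after quantile normalization (adjusted p = 0.162). Changes of the 3 probe sets of Pfkl, the liver-type subunit, lay between -0.09 and 0.06 with either compound.

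Pkm and Ldha, the last steps of glycolysis, read above 13 on every MEF array. Pkm read 13.26, 13.35, 13.34 and 13.33 in WT with vehicle, and its changes lay between -0.01 and 0.03. Ldha fell with AICAR in dKO MEFs by 0.05 ± 0.02 (adjusted p = 0.047), from 13.12, 13.16, 13.14 and 13.18 to 13.09, 13.10, 13.13 and 13.09, with overlap. That call was lost in 11 of the 23 fits without 1 array (dKO AICAR replicates 1, 2 and 4, dKO vehicle replicates 2, 3 and 4, dKO 991 replicate 4, WT 991 replicate 3, WT AICAR replicates 3 and 4 and WT vehicle replicate 4; adjusted p = 0.0506 to 0.162), without the intensity trend (adjusted p = 0.23), with the interquartile range as a covariate (adjusted p = 0.0607) and with the technical replicate number as a block (adjusted p = 0.0504).

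The 991 calls in WT MEFs rest on few arrays. The number of member probe sets called was 2 without WT vehicle replicate 1 or WT 991 replicate 2, 1 without WT 991 replicate 3 and 7 without WT vehicle replicate 2, and it was 1 after quantile normalization. The interquartile range of log2 values on an array was 3.73 to 3.89 in WT MEFs with 991 and 3.58 to 3.74 with vehicle, and with this range as a covariate 2 member probe sets were called. Eno2 was called in all these fits. The share of all probe sets called in each of them is not given here, so the counts do not single out the members.

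**Figure D2:**
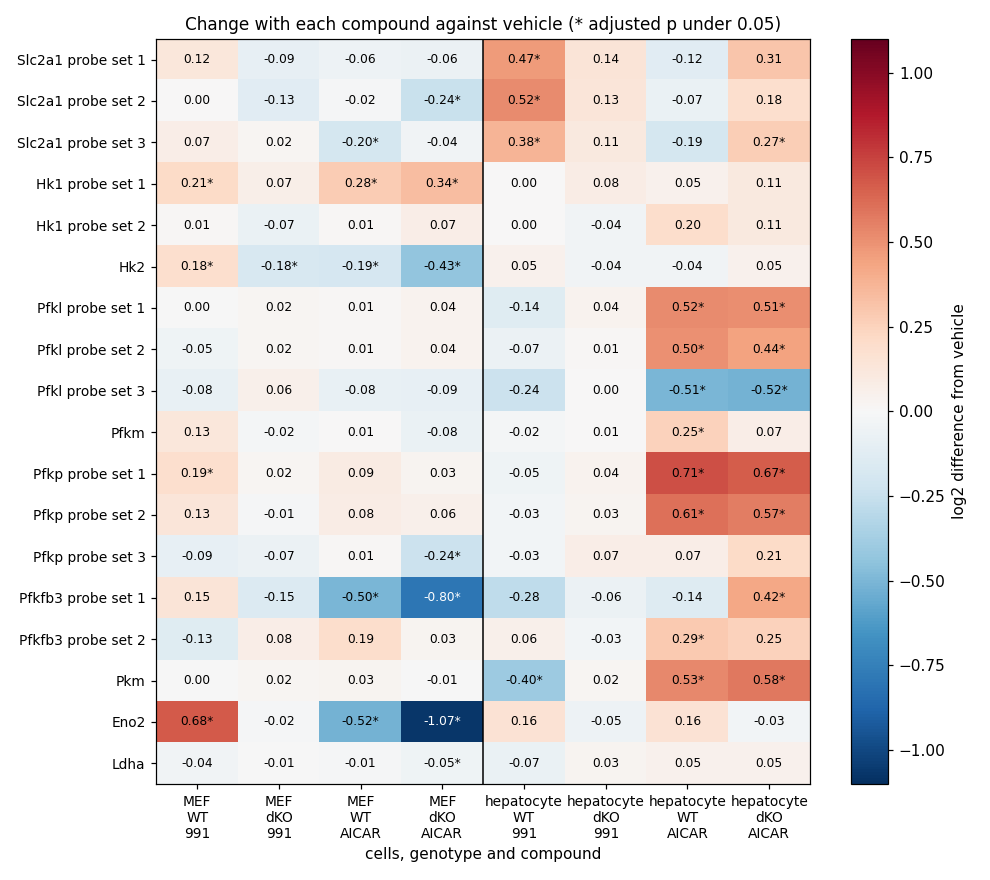
Log2 difference from vehicle for all 18 probe sets (rows, in the order of their identifiers within a gene) in each cell type, genotype and compound (columns), with colour and printed value for the difference and a star for an adjusted p under 0.05. The dKO columns with 991 hold 1 star in MEFs and none in hepatocytes, and Eno2 with AICAR in dKO MEFs is the lowest value, -1.07.

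Between the genotypes with vehicle, 11 of 18 member probe sets were called in MEFs, 5 higher and 6 lower in dKO, where 40.9% of all probe sets were called. The muscle-type and platelet-type phosphofructokinase subunits were higher in dKO and the liver-type subunit was lower. Pfkm read 9.51 to 9.62 in WT and 10.39 to 10.44 in dKO (0.83 ± 0.04, adjusted p = 2.36e-17). Pfkp on 1416069_at read 8.68 to 8.88 in WT and 9.75 to 9.80 in dKO (1.00 ± 0.05, 2.00-fold, adjusted p = 1.93e-17), and 1430634_a_at agreed in size (0.89 ± 0.06). The third Pfkp probe set, 1437759_at, was higher by 0.23 ± 0.09 (adjusted p = 0.0401), a call lost without dKO vehicle replicate 1 or 3 or WT vehicle replicate 3 or 4 (adjusted p = 0.0729 to 0.2) and with the interquartile range as a covariate (adjusted p = 0.0706). All 3 Pfkl probe sets were lower, by -0.23 to -0.28, each without overlap between the genotypes. Eno2 was higher by 0.57 ± 0.08, and Pkm and Ldha were lower by -0.17 each, again without overlap. Slc2a1 was lower on 1434773_a_at (-0.18 ± 0.04, adjusted p = 0.00109), with overlapping arrays, and the Hk1, Hk2 and Pfkfb3 probe sets were not called. Fibroblast and stellate markers, 12 measured, averaged 8.56 in WT and 7.21 in dKO MEFs with vehicle and were lower in 8 of 12, and all 5 cholangiocyte markers measured were lower. Their part in the member differences was not tested.

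The order of the MEF groups followed the genotype for Pfkm and Pfkp (1416069_at), with all 3 dKO groups above all 3 WT groups, and the reverse for Pfkl (1439148_a_at), Pkm and Ldha. On the dim Pfkp probe set 1437759_at dKO with AICAR (5.158) did not lie above WT with vehicle (5.165). For Pfkp (1416069_at) the group means ran from 9.80 in dKO with AICAR, through 9.79 with 991 and 9.77 with vehicle in dKO, to 8.96 in WT with 991, 8.87 with AICAR and 8.78 with vehicle, and only the step between the genotypes was free of overlap between neighbours. For Eno2 the order was WT with 991 (7.40), dKO with vehicle (7.30), dKO with 991 (7.29), WT with vehicle (6.73), dKO with AICAR (6.23) and WT with AICAR (6.21), where the first 3 overlapped one another in turn, as did the last 2. For Pfkfb3 (1416432_at) both AICAR groups, at 5.72 in WT and 5.61 in dKO, lay below the other 4, whose neighbours overlapped (6.23 to 6.40).

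In WT hepatocytes, 991 lowered Pkm and raised Slc2a1. AICAR raised Pkm and probe sets of the phosphofructokinase subunits Pfkl and Pfkp in both genotypes, while the Pfkl probe set 1453541_at fell in both. In the hepatocyte fit of 12 means, 4 of 18 member probe sets were called with 991 in WT (3 higher, 1 lower; 4.09% of all), while limma called 0 in dKO, with 0 at an unadjusted p under 0.05 (0.00666% of all). With AICAR, 8 were called in WT (7 higher, 1 lower; 18.2% of all) and 8 in dKO (7 higher, 1 lower; 20.8% of all). The members' median change with AICAR was 0.12 in WT and 0.23 in dKO, against 0.04 and 0.03 over all probe sets. For the difference between genotypes in these effects limma called 0 member probe sets with 991 (5 at an unadjusted p under 0.05; 0.189% of all called) and 0 with AICAR (3 at an unadjusted p under 0.05; 2.52% of all called). With 991 in WT the count was 1 without WT replicate 2 and 2 without dKO replicate 1 or 2. With AICAR it was 5 in WT without WT replicate 1 and 5 in dKO without dKO replicate 1, and the genotype difference with AICAR was called for 4 without WT replicate 2. An effect called in 1 genotype only was therefore not shown to differ from that in the other. Shares of all probe sets called in the fits without 1 replicate are not given here.

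**Figure D3:**
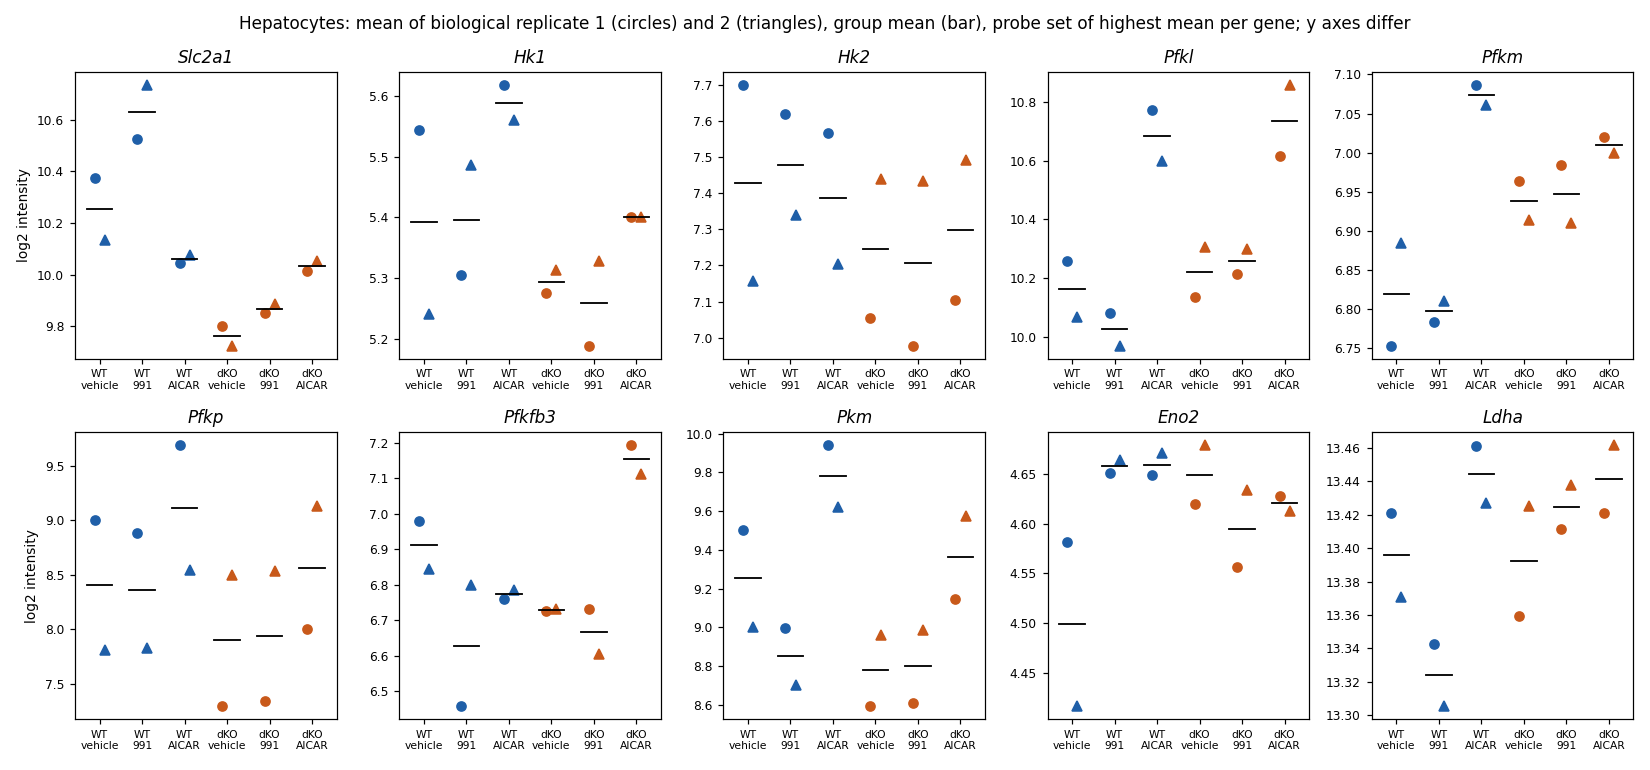
Log2 intensity of each gene's probe set of highest mean in hepatocytes, with a circle for biological replicate 1, a triangle for biological replicate 2 (each a mean of technical replicates), a bar at the group mean and a separate scale for each gene. Pkm and Pfkl lie higher with AICAR than with vehicle in both replicates of both genotypes, and the replicates of Pfkp stand further apart than its treatments.

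Pkm, whose M2 form predominates in many cells other than hepatocytes, read 9.50 and 9.0 with vehicle in WT replicates 1 and 2, 9.0 and 8.70 with 991, and 9.94 and 9.62 with AICAR. In dKO it read 8.59 and 8.96 with vehicle, 8.61 and 8.98 with 991, and 9.15 and 9.58 with AICAR. Within each replicate 991 was below vehicle in WT and level with it in dKO, and AICAR was above vehicle in all 4 replicates. The change with 991 was -0.40 ± 0.06 in WT (0.757 of vehicle, adjusted p = 0.00539) and 0.02 ± 0.06 in dKO, with a difference of -0.42 ± 0.09 (adjusted p = 0.131). AICAR raised Pkm by 0.53 ± 0.06 in WT (adjusted p = 0.000167) and 0.58 ± 0.06 in dKO (adjusted p = 4.76e-05). Without WT replicate 1 the fall with 991 was -0.30 (adjusted p = 0.0853). Without the replicate block none of these Pkm changes was called (adjusted p = 0.419, 0.18 and 0.133).

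Slc2a1 read 10.37 and 10.13 with vehicle in WT replicates 1 and 2 on 1434773_a_at, 10.53 and 10.73 with 991, and 10.04 and 10.07 with AICAR. In dKO it read 9.80 and 9.72 with vehicle, 9.85 and 9.89 with 991, and 10.01 and 10.05 with AICAR. The 3 probe sets rose with 991 in WT by 0.38 to 0.52 (adjusted p = 0.0318 to 0.0456), and in dKO they changed by 0.11 to 0.14. The rise was uneven, with 0.15 to 0.16 in WT replicate 1 and 0.60 to 0.87 in WT replicate 2. Without WT replicate 2 it was not called on any of the 3 (adjusted p = 0.572 to 0.626), and without either dKO replicate 1426599_a_at and 1426600_at were not called (adjusted p = 0.0592 to 0.0659), nor after quantile normalization (adjusted p = 0.0537 and 0.0615). Nor was it called without the intensity trend (adjusted p = 0.0587 to 0.0732) or without the replicate block (adjusted p = 0.107 to 0.131), and the difference from dKO was not called (adjusted p = 0.69 to 0.743). With AICAR in dKO the rise of 0.27 ± 0.08 on 1434773_a_at (adjusted p = 0.0433) was lost without dKO replicate 1 (adjusted p = 0.164) or 2 (adjusted p = 0.345), and under 4 other alternatives (quantile normalization, the mean of probe sets, no trend and no replicate block; adjusted p = 0.0685 to 0.137). Slc2a1 on this probe set stood lower in both dKO replicates than in both WT replicates with vehicle, by -0.49 ± 0.10, which did not pass (adjusted p = 0.858).

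Pfkl, the main liver subunit of phosphofructokinase, read 10.26 and 10.07 with vehicle and 10.77 and 10.60 with AICAR in WT on 1439148_a_at, and 10.14 and 10.31 with vehicle and 10.61 and 10.86 with AICAR in dKO. Every array with AICAR lay above every vehicle array in each genotype. The rise was 0.52 ± 0.05 in WT (adjusted p = 4.42e-05) and 0.51 ± 0.05 in dKO (adjusted p = 2.75e-05), and 1450269_a_at rose by 0.50 ± 0.06 and 0.44 ± 0.06. The third Pfkl probe set, 1453541_at, moved the other way. It read 8.10 and 7.71 with vehicle and 7.30 and 7.50 with AICAR in WT, and 7.74 and 7.70 with vehicle and 7.06 and 7.34 with AICAR in dKO (-0.51 ± 0.13, adjusted p = 0.017, and -0.52 ± 0.13, adjusted p = 0.013). The mean of the 3 probe sets was not called with AICAR in WT (0.17, adjusted p = 0.101) or dKO (0.15, adjusted p = 0.155). The fall on 1453541_at was not called without WT replicate 1 in WT (-0.21, adjusted p = 0.321) or without dKO replicate 1 in dKO (-0.36, adjusted p = 0.271). The first pair of Pfkl probe sets was called without either replicate.

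Pfkp differed more between the biological replicates than between treatments. On 1416069_at it read 9.01 and 7.81 with vehicle, 8.88 and 7.83 with 991 and 9.69 and 8.55 with AICAR in WT replicates 1 and 2. In dKO it read 7.30 and 8.50 with vehicle, 7.34 and 8.54 with 991 and 8.0 and 9.13 with AICAR, so the higher replicate was number 1 in WT and number 2 in dKO. Within each replicate AICAR raised the level by a similar amount, 0.71 ± 0.06 in WT (1.63-fold, adjusted p = 1.52e-05) and 0.67 ± 0.06 in dKO (1.59-fold, adjusted p = 1.3e-05). The probe set 1430634_a_at rose by 0.61 ± 0.07 and 0.57 ± 0.07, and the dim 1437759_at was not called (0.07 ± 0.09 and 0.21 ± 0.09). These calls need the replicate block, since without it the adjusted p was 0.475 to 0.589. With 991 the Pfkp changes lay between -0.05 and 0.07.

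**Figure D4:**
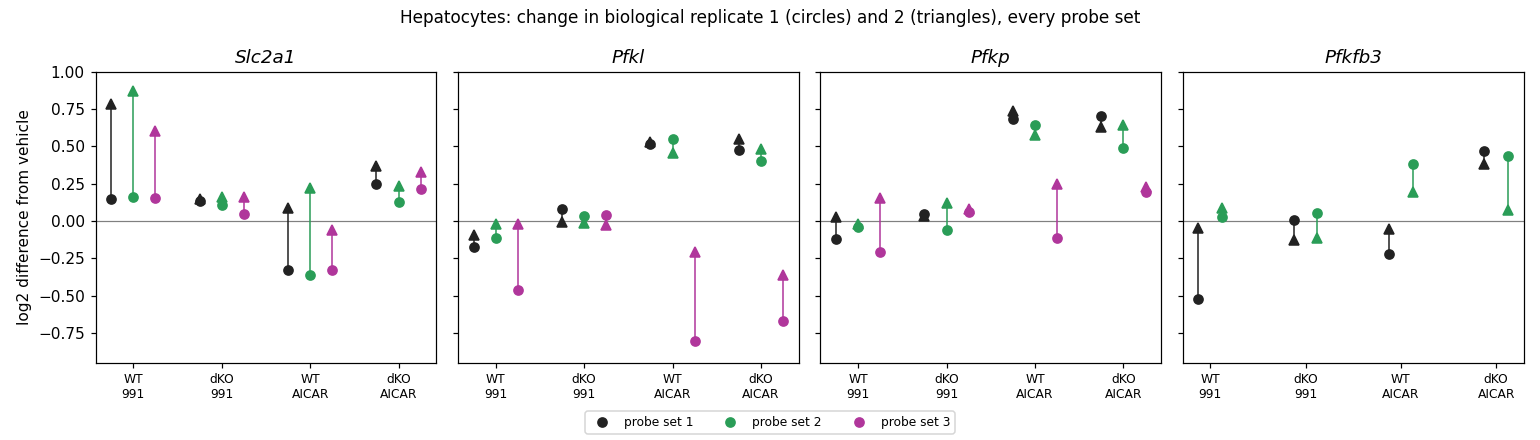
Log2 difference from vehicle within biological replicate 1 (circles) and 2 (triangles) of each hepatocyte genotype and compound, for every probe set of Slc2a1, Pfkl, Pfkp and Pfkfb3 (colours, in the order of their identifiers). Slc2a1 with 991 in WT is 0.15 to 0.16 in replicate 1 and 0.60 to 0.87 in replicate 2, and the third Pfkl probe set falls with AICAR while the first pair rise.

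Pfkfb3 gave no common picture in hepatocytes. On 1416432_at it read 6.98 and 6.84 with vehicle, 6.46 and 6.80 with 991 and 6.76 and 6.79 with AICAR in WT, and 6.73 and 6.73 with vehicle, 6.73 and 6.60 with 991 and 7.19 and 7.11 with AICAR in dKO. AICAR raised it in dKO by 0.42 ± 0.10 (adjusted p = 0.00924), with all AICAR arrays above all vehicle arrays, whereas in WT the change was -0.14 ± 0.10, and the difference of -0.56 ± 0.14 was not called (adjusted p = 0.0639). Without dKO replicate 1 the rise was 0.38 (adjusted p = 0.168) and without dKO replicate 2 it was 0.47 (adjusted p = 0.0677). On 1456676_a_at the rise was of similar size in WT (0.29 ± 0.09, adjusted p = 0.0474) and dKO (0.25 ± 0.09, adjusted p = 0.0713), and only WT was called. The difference between them was 0.03 ± 0.13 (adjusted p = 0.954). The WT call was lost without WT replicate 1 (change 0.20) or 2 (change 0.38). It was also lost after quantile normalization, without the trend and without the replicate block (adjusted p = 0.051 to 0.185). Pfkm read 6.75 and 6.88 with vehicle and 7.09 and 7.06 with AICAR in WT (0.25 ± 0.07, adjusted p = 0.0198), and without WT replicate 1 the change was 0.18 (adjusted p = 0.217).

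Hk2, Hk1, Eno2 and Ldha were not called by limma with either compound in hepatocytes, where Eno2 with each compound and Ldha with 991, all in WT, had an unadjusted p under 0.05. Hk2 read 7.70 and 7.16 with vehicle in WT and 7.05 and 7.44 in dKO, so its replicates stood apart by more than any of its treatment changes (-0.04 to 0.05). Eno2 lay between 4.42 and 4.68 in all replicate means and the Hk1 probe sets between 4.10 and 5.62. By mean level in hepatocytes, Eno2 stood at percentile 25.3 of all probe sets and the Hk1 probe sets at 19.1 and 39.4. At levels this low, the lack of a call does not show a lack of response. Ldha lay between 13.31 and 13.46, and its change with 991 in WT was -0.07 ± 0.03 (adjusted p = 0.171). With 991 in WT, Pfkl on 1439148_a_at (-0.14 ± 0.05) and Pfkfb3 on 1416432_at (-0.28 ± 0.10) also had an unadjusted p under 0.05 by limma without a call.

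Beside the AICAR changes in hepatocytes, the mean of the 8 endothelial markers moved from 6.71 to 6.96 in WT and from 6.79 to 7.04 in dKO, with 3 and 4 of 8 markers called higher, where 8.39% and 9.97% of all probe sets were. The mean of the 10 Kupffer cell and macrophage markers moved from 8.54 to 8.67 in WT and from 8.04 to 8.29 in dKO, where 6 of 10 were called higher. In WT limma called 0 of those 10, and 5 had an unadjusted p under 0.05. The mean of the 10 hepatocyte markers moved from 11.88 to 11.98 in WT and from 11.88 to 11.96 in dKO, with 3 and 4 called higher and 1 lower in each, and that of the 7 lymphocyte and erythroid markers from 5.90 to 6.05 and from 5.88 to 6.03, with 1 called higher in each. The 12 fibroblast and stellate markers moved from 6.21 to 6.32 and from 6.23 to 6.33, with 2 called higher in each, and the 5 cholangiocyte markers from 5.59 to 5.51 and from 5.67 to 5.60. The marker mean of Kupffer cells with vehicle was 8.33 and 8.75 in WT replicates 1 and 2 and 8.18 and 7.91 in dKO replicates 1 and 2. The part of these cells in the member changes was not tested. In the comparison of dKO with WT hepatocytes with vehicle, on 4 means, limma called 0 member probe sets, with 2 at an unadjusted p under 0.05, and 0% of all probe sets (2454 at an unadjusted p under 0.05). Same-numbered replicates of the genotypes deviated oppositely (median r = -0.67 across probe sets), and with crossed replicate numbers as a block, chosen after seeing the data, 7 member probe sets were called, all lower in dKO. The share of all probe sets called with that block is not given here, so this count says nothing about the members in particular.

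Between the cell types, levels of a probe set were set side by side in WT cells with vehicle, without a test, since the labels do not say whether both cell types went through 1 normalization. Hepatocytes read lower than MEFs by -4.75 for Hk1 (1437974_a_at), -4.07 for Pkm, -2.76 for Pfkm, -2.23 for Eno2 and -1.66 for Hk2. Pfkfb3 read higher by 0.69 and 0.61 on its 2 probe sets. Pfkl differed by -0.38 on 1439148_a_at, -0.54 on 1450269_a_at and 0.61 on 1453541_at, so its probe sets disagreed in sign. Slc2a1 (-0.06 to 0.31) and Ldha (0.08) differed less in the deposited values. A joint quantile normalization of all 82 arrays turned the sign of small differences, to 0.23 for Slc2a1 on 1426599_a_at, from -0.37 to 0.03 for Pfkp on 1430634_a_at and to -0.0058 for Ldha, and left the large ones in place, at -4.49 for Hk1 and -1.30 for Hk2. It also placed Slc2a1 higher in hepatocytes on 1426600_at (0.63) and 1434773_a_at (0.31). How alike Slc2a1 reads in the cell types thus depends on the normalization.

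Other genes of glucose handling were read from lists, with the probe set of highest mean standing for the gene. The shares of all probe sets called, against which these counts are to be read, were 9.23% higher and 3.8% lower with 991 in WT MEFs, 18% and 13.8% with AICAR in WT MEFs, 20.1% and 17.7% with AICAR in dKO MEFs, and 22.3% and 18.6% between the MEF genotypes. In hepatocytes they were 2.51% higher and 1.58% lower with 991 in WT, 8.39% and 9.86% with AICAR in WT, and 9.97% and 10.8% with AICAR in dKO. Of 8 measured regulators of uptake, hexokinase and phosphofructokinase, 1 rose with 991 in WT MEFs, 2 rose with AICAR in WT MEFs, and 2 rose and 2 fell with AICAR in dKO MEFs, counts near those shares. Between MEF genotypes 4 were higher and 1 lower in dKO, led by Pfkfb4 (1.00 ± 0.05). Txnip, whose protein restrains glucose uptake, rose by 0.73 ± 0.08 with 991 in WT MEFs and by 1.86 ± 0.07 and 0.48 ± 0.07 with AICAR in WT and dKO MEFs, and its relative Arrdc4 rose by 0.67 ± 0.09 and 0.63 ± 0.09 with AICAR. The Txnip effects differed between the genotypes, by 0.73 ± 0.11 with 991 (adjusted p = 0.00011) and 1.37 ± 0.10 with AICAR (adjusted p = 4.5e-11). In hepatocytes 2 of the 8 rose with 991 in WT, 2 rose with AICAR in WT (Txnip by 0.74 ± 0.17), and 3 rose and 1 fell with AICAR in dKO, among them Gckr, the glucokinase regulator, in each of the 3 comparisons (0.34 ± 0.05, 0.18 ± 0.05 and 0.26 ± 0.05).

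Of 12 other glucose and lactate transporters, 1 rose with 991 in WT MEFs (Slc16a1, a lactate carrier, 0.17 ± 0.04), 1 fell with AICAR in WT MEFs and 2 fell in dKO MEFs, each at or below the share over all probe sets (9.23% higher with 991, 13.8% and 17.7% lower with AICAR). Slc2a3, the high-affinity transporter GLUT3, fell in both, by 0.39 ± 0.08 and 0.50 ± 0.08, and was higher in dKO than WT MEFs with vehicle by 1.78 ± 0.08. In that genotype comparison 5 of the 12 were higher and 3 lower, including Slc2a6 (1.41 ± 0.09) and the lactate exporter Slc16a3 (0.81 ± 0.09). In WT hepatocytes Slc2a2 (GLUT2) rose with 991 by 0.38 ± 0.09, and 2 of the 12 rose and 1 fell with AICAR, led by Slc16a3 (0.62 ± 0.13).

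Of 13 other glycolysis enzymes, 1 rose and 2 fell with 991 in WT MEFs, 2 rose and 1 fell with AICAR in WT MEFs and 1 rose and 3 fell with AICAR in dKO MEFs, with the largest of these changes -0.24 for Hkdc1 and Pklr and 0.27 for the ADP-dependent glucokinase Adpgk. Beside 9.23% higher and 3.8% lower of all probe sets with 991, and 18% and 13.8% in WT and 20.1% and 17.7% in dKO with AICAR, most of these counts lay near or below the share over all. In hepatocytes 1 rose with 991 in WT, the hexokinase-domain gene Hkdc1, by 0.63 ± 0.06. Its effect also differed from that in dKO (0.63 ± 0.09, adjusted p = 0.021). With AICAR 3 rose and 1 fell in WT hepatocytes and 2 rose and 1 fell in dKO hepatocytes, where Pklr, the liver pyruvate kinase, fell in both (-0.30 ± 0.07 and -0.33 ± 0.07), opposite to Pkm. Between MEF genotypes 2 were higher (Aldoc 0.69 ± 0.07 and Eno3 0.56 ± 0.04) and 2 lower in dKO. Of 7 pentose phosphate pathway genes, 3 rose with 991 and 3 with AICAR in WT MEFs, 1 rose and 2 fell with AICAR in dKO MEFs, and 4 were higher and 2 lower in dKO MEFs, where 22.3% of all probe sets were higher and 18.6% lower. In hepatocytes 1 rose and 2 fell with each compound in WT, and 1 rose and 1 fell with AICAR in dKO.

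Of 9 transcription factors of glycolytic genes, 4 rose and 1 fell with AICAR in WT MEFs and 4 rose and 2 fell in dKO MEFs, where 18% and 20.1% of all probe sets rose and 13.8% and 17.7% fell. Myc, an activator of glycolytic genes, fell by 0.32 ± 0.04 and 0.87 ± 0.04 there and rose with AICAR in WT hepatocytes by 0.47 ± 0.05. With 991 Sp1 rose in WT MEFs and Myc fell in dKO MEFs, and in WT hepatocytes 2 of the 9 rose (Myc 0.44 ± 0.05 and Hif1a 0.34 ± 0.05). With AICAR 2 rose and 2 fell in WT hepatocytes and 1 rose in dKO hepatocytes. Between MEF genotypes 3 were higher and 2 lower in dKO, led by Epas1, which encodes HIF-2α (1.32 ± 0.07). Of 14 other HIF target genes, 1 rose and 7 fell with AICAR in WT MEFs and 1 rose and 6 fell in dKO MEFs, beside the same shares, with list medians of -0.15 and -0.10 against -0.006 and -0.0091 over all probe sets, among them Adm in WT (-0.88 ± 0.09) and Ankrd37 in both (-0.87 ± 0.07 and -0.98 ± 0.07). In hepatocytes 7 rose and 1 fell with AICAR in WT and 9 rose and 1 fell in dKO (8.39% and 9.97% of all probe sets rose), with list medians of 0.19 and 0.35 against 0.04 and 0.03, among them Egln3 (0.50 ± 0.09 and 0.81 ± 0.09) and Ndrg1 (0.64 ± 0.14 and 0.73 ± 0.14). The difference between the cell types was not tested. With 991 3 of the 14 rose in WT MEFs (Ndrg1 by 0.61 ± 0.06), 1 rose in dKO MEFs (Bnip3) and 1 fell in WT hepatocytes (Egln3, -0.68 ± 0.09), and between MEF genotypes 4 were higher and 8 lower in dKO.

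Genes whose group means tracked a member most closely were taken over the 6 group means of a cell type, as a description. For Slc2a1 in MEFs these were Prr5l (r = 0.996), Plekha5 (r = 0.995) and Zfp266 (r = 0.991), for Hk2 they were 4930558J18Rik (r = 0.988), Gad1 and Prr14, and for Pfkfb3 Dph2 (r = 0.997), Gm17308 and Preb. In hepatocytes they were Nrxn3 (r = 0.991), Ctbs and Arhgef11 for Slc2a1, Ncan (r = 0.997), Fam174a and Vcam1 for Hk2, and Klhl2 (r = 0.999), Tmem237 and Ift27 for Pfkfb3. With 6 points that share arrays, high values are common among 45037 probe sets.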

How the data were processed

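Arrays were processed by the authors with RMA and Partek, per the submitters' processing notes, whose versions are not given in the sources used here. What the authors deposited is 1 table of 82 arrays, with each probe set's summarised intensity on a log2 scale. Of 45101 probe sets, 64 controls were left out. Per the platform annotation, 34945 of the others carry 1 gene symbol, 932 several and 9160 none, and 34741 matched the reference table by Entrez identifier. The number of arrays and replicates limits the precision.

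Linear models were fitted in R 4.3.3 with limma 3.58.1 and its empirical Bayes step with an intensity trend on all 45037 probe sets within each cell type, with Benjamini-Hochberg adjustment over all of them. MEFs were fitted as 6 group means over 23 arrays. Hepatocytes were fitted on 12 means of technical replicates with the biological replicate within genotype as a fixed replicate block, and genotype on the 4 vehicle means. Treatments of the same replicate number within a genotype deviated together (median r = 0.459, lowest 0.358, across probe sets), and the labels give them 1 biological replicate. SE are standard errors of the fit. The code was tested on simulated data. Figures used Python 3.11.15, pandas 2.3.3 and matplotlib 3.10.9.

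Members, pathway lists and marker lists, written from general knowledge, were chosen with earlier results of these data known. Every member probe set is reported, and from each pathway list up to 4 called genes of largest change per comparison. The alternatives were quantile normalization, 1 probe set or the mean per gene, no trend, other replicate blocks, every hepatocyte array as a sample, an array's interquartile range as a covariate, and leaving out each array or biological replicate.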

Additional observations from a re-analysis of the deposited data

Results flagged for a closer look

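Each set of arrays was a gene's probe set of highest mean in 1 MEF group, or in 1 biological replicate of a hepatocyte group. WT MEFs with 991, with 3 arrays, were not in this check. Among the 170 sets, 10 held an array far from the others, near the 5% of sets that chance gives. In MEFs these were Hk1 in WT vehicle replicate 2 (10.30, the others 10.08 to 10.11) and Ldha in WT AICAR replicate 2 (13.33, the others 13.29 to 13.30). In WT hepatocytes with vehicle, Hk2 read 6.96 in technical replicate 4 of biological replicate 2 (the others 7.16 to 7.24), Pfkl 10.40 in technical replicate 2 of biological replicate 1, Pkm 9.40 in technical replicate 1 of biological replicate 1 and Ldha 13.28 in technical replicate 5 of biological replicate 2 (the others 13.37 to 13.40). The rest were Pfkl in WT with 991 (9.83, technical replicate 3 of biological replicate 2), Pfkl in dKO with 991 (10.13, technical replicate 4 of biological replicate 2), Pfkfb3 in WT with AICAR (6.87, technical replicate 5 of biological replicate 2) and Ldha in dKO with vehicle (13.28, technical replicate 5 of biological replicate 1).

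In MEFs 5 effects of treatment differed between the genotypes by the interaction test, with the effect in dKO subtracted from that in WT. Of the 18 member probe sets 2 were called with 991 and 3 with AICAR, where 2.9% and 9.37% of all probe sets were. They were 0.36 for Hk2 with 991, 0.24 for Hk2 with AICAR, 0.69 for Eno2 with 991, 0.55 for Eno2 with AICAR and 0.23 for Slc2a1 (1426600_at) with AICAR. The Slc2a1 difference was not called on 1434773_a_at (-0.16) or 1426599_a_at (0.0025). On 1426600_at the call was lost in several fits without 1 array and without the intensity trend.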

How the results depend on the processing

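Of the counts of called member probe sets recomputed under alternatives, 254 stayed within 1.5 times the count given and 35 did not. The shares of all probe sets called under these alternatives are not given here. A changed count therefore does not set the members apart. In WT MEFs with 991 the count of 4 became 1 after quantile normalization, 2 with the interquartile range as a covariate and 1 to 7 without 1 array, and with 1 probe set per gene it was 4 of 10. In dKO MEFs with 991 the count of 1 became 0 without the trend and 0 to 1 without 1 array, and was 1 of 10 with 1 probe set per gene or their mean. The genotype difference with 991 was 2 of 10 in both those fits, and AICAR in dKO MEFs gave 6 of 10 with the mean of probe sets. Technical replicate numbers did not pair MEF arrays (median r = 0.01 for the same number), and with them as a replicate block 3 member probe sets were called with 991 in WT.

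In hepatocytes with 991 in WT the count of 4 became 2 after quantile normalization, 1 without the trend, 0 without the replicate block, 9 with every array a sample and 1 to 3 without 1 biological replicate. With AICAR the counts of 8 became 4 in each genotype without the replicate block, 5 to 10 in WT and 5 to 11 in dKO without 1 biological replicate, and 13 in dKO with every array a sample. With every array a sample, technical replicates count as independent, although each genotype has 2 biological replicates. The genotype differences, 0 in the fit of means, were 6 with 991 and 5 with AICAR, and 6 for genotype under vehicle. Without 1 biological replicate they were 0 to 1 and 0 to 4, where a lone sample is assumed to vary like the others. Crossing the replicate numbers between genotypes, chosen after seeing the data because same-numbered replicates deviated oppositely (median r = -0.67), gave 7 member probe sets lower in dKO. The fit without that block called 0.

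The joint quantile normalization reversed the difference between cell types for Slc2a1 on 1426599_a_at (0.23), Pfkp on 1430634_a_at (0.031) and Ldha (-0.0058). The cause was not tested for any of these changes.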
